A study of Mus musculus with 2 samples.

Results

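The genes described here make, store and break down monoamine transmitters, or carry the soluble proteins of the granules in which chromaffin cells of the adrenal medulla keep them. The set holds 8 genes (Slc18a2, Ddc, Th, Dbh, Pnmt, Chga, Chgb and Maoa) of the 18193 genes that had a probe set with a single gene symbol on the array. All 14 probe sets whose only symbol was 1 of these 8 were taken, of 34945 such probe sets in all. Expression was compared between 2 pools of whole ovary RNA, each made from 8 mice at 2 days of age and hybridised to 1 Affymetrix mouse expression array. The control pool came from Amhr2(+/+)-SmoM2 mice and the mutant pool from Amhr2(cre/+)-SmoM2 mice, so both carried SmoM2, a Smoothened allele that signals without hedgehog ligand once Cre has acted on it. In the mutant pool Cre was expressed from the Amhr2 locus, which is active in somatic cells of the gonad. The pools thus differ in Cre, in 1 Amhr2 copy and in SmoM2 activation at once, and these cannot be told apart.

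With 1 array per genotype no value below has a replicate error or a p-value. The values are signal intensities on a linear scale. The signal minimum was 80.7, the median over both arrays, and a probe set had to reach it in at least 1 pool to be called measured, which 12308 genes did. A constant of 22.2 (the 25th percentile over both arrays) was added to each signal before the log2 ratio of mutant to control, and this makes ratios of dim genes smaller than they are. For a gene with several measured probe sets the brightest on average stands for it. Where 1 signal lay under the minimum, the fold is written as at least the brighter signal divided by 80.7. Probe sets differ in how strongly they hybridise, so signals are compared between the pools and not between genes. Gli1 and Ptch1, targets that report hedgehog activity, read 264 and 15949 (mutant) against 103 and 5574 (control). The 3' to 5' signal ratio, a measure of RNA integrity, was 8.48 (control) and 10.5 (mutant) for Actb, and 3.28 and 4.98 for Gapdh. Spiked hybridization controls were brighter on the mutant array for 17 of 18 probe sets, by a median log2 ratio of 0.23. The part of these differences in the results below was not tested.

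Catecholamines are made from tyrosine in steps. Tyrosine hydroxylase (Th) makes L-DOPA, aromatic L-amino acid decarboxylase (Ddc) turns it into dopamine, dopamine beta-hydroxylase (Dbh) makes noradrenaline inside the vesicle, and phenylethanolamine N-methyltransferase (Pnmt) makes adrenaline. Ddc also makes serotonin, and the vesicular monoamine transporter VMAT2 (Slc18a2) loads all of these amines, and histamine, into vesicles. Chromogranins A and B (Chga, Chgb) are acidic proteins of the same granules, and monoamine oxidase A (Maoa) breaks the amines down at the mitochondrial outer membrane. In the ovary, catecholamines come from sympathetic nerves and can also be handled by other cells.

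Several of these genes are known for cAMP-regulated promoters, so the RefSeq promoter windows (GRCm38.p6, from 250 bases before to 50 after the annotated start) were searched on both strands. The windows of 7 of the 8 members were in the table, with 8 windows in all because Ddc has an alternative one. Pnmt was not matched. The cAMP response element TGACGTCA occurred in 3 of the 8 windows, those of Slc18a2, Th and Chgb, and in 1.79% of all 32851 windows. It lay across the start site of Slc18a2 (-4 to 4), at -45 to -38 in Th and at -72 to -65 in Chgb, counted from the first transcribed base as 1. The looser form TGACGTNA, which includes the previous motif, also matched Chga as TGACGTAA at -44 to -37, and 2.93% of all windows. The sequence AAGGTCA, bound by the steroidogenic factor Nr5a1, occurred in reverse in the upstream window of Ddc, at -73 to -67, and in 4.72% of all windows. The Gli motif GACCACCCA matched 0 of the 8 windows and 0.253% of all. The 5 windows with a match are printed 5′ to 3′ up to base 10 after the start, because they show the element in Slc18a2, Th and Chgb, its looser form in Chga, and the match in Ddc. Capitals mark the matches.
Slc18a2, chr19:59260628-59260887, plus strand: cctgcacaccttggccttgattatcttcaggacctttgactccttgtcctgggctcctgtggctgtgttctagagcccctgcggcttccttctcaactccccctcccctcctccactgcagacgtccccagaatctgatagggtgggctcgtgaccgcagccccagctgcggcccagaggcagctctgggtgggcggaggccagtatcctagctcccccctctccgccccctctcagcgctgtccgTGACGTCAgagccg
Th, chr7:142899986-142900245, minus strand: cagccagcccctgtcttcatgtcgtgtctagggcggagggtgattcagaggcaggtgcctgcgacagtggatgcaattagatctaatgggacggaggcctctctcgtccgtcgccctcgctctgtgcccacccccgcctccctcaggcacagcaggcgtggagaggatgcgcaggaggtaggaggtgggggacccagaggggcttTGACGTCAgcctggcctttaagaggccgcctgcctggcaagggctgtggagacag
Chgb, chr2:132781392-132781651, plus strand: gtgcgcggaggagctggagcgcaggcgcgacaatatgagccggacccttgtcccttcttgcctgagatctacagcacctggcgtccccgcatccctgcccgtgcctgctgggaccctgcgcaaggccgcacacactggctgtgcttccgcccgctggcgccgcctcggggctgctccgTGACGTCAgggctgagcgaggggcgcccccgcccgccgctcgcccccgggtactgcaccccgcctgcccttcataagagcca
Chga, chr12:102554691-102554950, plus strand: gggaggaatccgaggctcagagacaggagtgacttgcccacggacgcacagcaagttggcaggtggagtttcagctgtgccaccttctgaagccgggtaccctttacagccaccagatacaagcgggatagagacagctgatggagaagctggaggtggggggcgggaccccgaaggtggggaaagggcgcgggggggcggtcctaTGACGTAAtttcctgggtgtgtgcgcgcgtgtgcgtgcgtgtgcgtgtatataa
Ddc, chr11:11898135-11898394, minus strand: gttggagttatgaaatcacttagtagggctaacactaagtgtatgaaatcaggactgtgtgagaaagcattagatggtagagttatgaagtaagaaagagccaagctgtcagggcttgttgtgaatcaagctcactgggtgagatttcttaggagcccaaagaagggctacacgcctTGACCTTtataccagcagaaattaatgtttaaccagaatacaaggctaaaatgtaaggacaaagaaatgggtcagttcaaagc
A match is a description of the letters in these windows, and no binding was measured.

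Of the 8 members 7 were measured, on 8 of their 14 probe sets, and Chgb was too dim. Slc18a2 was 1.86-fold lower in the mutant pool, Ddc was 2.17-fold higher, and the others were near the signal minimum or differed little. By log2 ratio 1 of the 7 measured members (Pnmt) reached 2-fold higher, which 3.21% of all measured genes did, and 0 reached 2-fold lower, which 1.40% did. At 1.5-fold the counts were 3 higher (Ddc, Dbh and Pnmt), against 9.31% of all measured genes, and 1 lower (Slc18a2), against 7.88%. Dbh and Pnmt had control signals under the minimum and passed the filter through the mutant pool alone, so they could only count as higher. With both values at the minimum, 5 members were measured, of which 1 was at 1.5-fold higher and 0 at 2-fold higher. Ddc, 2.17-fold higher by its signals, fell just short by the log2 ratio of 0.99, which includes the added constant. Pnmt and Ddc both lie at the threshold, and the 2-fold count was 0 to 2 under the alternative settings. The median log2 ratio of the measured members was 0.22 and that of all measured genes -0.02. The members were chosen by function, with their signals in these same 2 arrays already known, so these counts describe them and support nothing further.

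**Figure D1:**
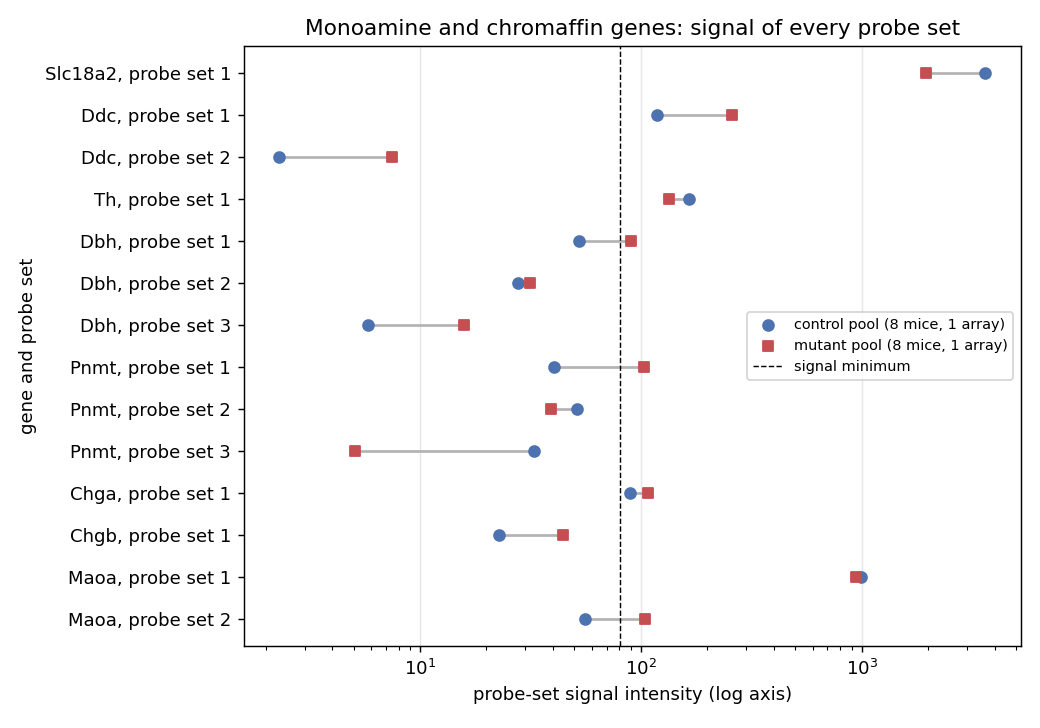
Signal intensity (log axis) of all 14 probe sets in the control pool (circles) and the mutant pool (squares), 1 array each; the dashed line is the signal minimum of 80.7, and signals of different probe sets cannot be compared. Slc18a2 is lower and the brighter Ddc probe set higher in the mutant pool, with all 4 of these signals above the minimum, while 6 probe sets lie under it in both pools.

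Slc18a2, the vesicular transporter, was lower in the mutant pool. Its signal was 3629 (control) and 1949 (mutant) on its single probe set, a log2 ratio of -0.89. Both signals stood well above the minimum, and the log2 ratio stayed between -0.90 and -0.84 under all 11 alternative settings. With 1 bright probe set, the settings that change which probe sets are measured or chosen could not alter this ratio. The measured probe sets were divided into 4 classes of equal size by mean signal. Among the 3968 measured genes in the brightest class, 0.504% were as low or lower, and among all measured genes 2.29% were. The SD between probe sets of the same gene, the only spread that these arrays give, was 0.32 on the log2 ratio in that class.

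In the brightest class 19 other genes had ratios at least as low as that of Slc18a2. Of these, 2 were in the pregranulosa list and 1 in the oocyte list, and most were in no marker list. Genes in no list, named after their values were seen, were for example Srrm2 with -1.47, Slc4a1 with -1.16 and Smarcc1 with -1.01. Trim71 with -1.18, Tdrd9 with -1.08 and Cpeb1 with -0.99 were in no list either. Foxl2 of the pregranulosa list had a log2 ratio of -0.95, and Figla of the oocyte list had -0.96. Amhr2, also in the pregranulosa list, had -1.30, but mutant mice carry Cre at this locus, and its probe set without shared transcripts had -0.26. Uchl1, listed here as a neuronal gene but also strong in germ cells, had -1.13, and the meiotic cohesin gene Smc1b, named after its values were seen, had -1.17. The lowest of the 19, also named after its values were seen, was Gclm, a subunit of the enzyme that starts glutathione synthesis, with -1.53.

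Markers of pregranulosa cells and oocytes, the defining cells of the newborn ovary, were present in both pools and lower in the mutant. In the pregranulosa list 7 of 8 genes had ratios under 0, with a median of -0.63, and their summed signal was 25500 (control) and 13781 (mutant). In the oocyte list 8 of 8 were under 0, with a median of -0.62 and summed signals of 34205 and 22161. None of these 16 markers was under the minimum in either pool. For scale, 1994 of the 3968 measured genes in the brightest class had ratios under 0, and the median of all measured genes was -0.02. Mast cells are known to carry Slc18a2. Of the 10 mast cell markers 8 were measured and 6 of these were under 0, with a median of -0.20 and summed signals of 5317 and 4294. The mast cell carboxypeptidase Cpa3 read 1165 (control) and 965 (mutant), and the chymase Cma1 273 and 139, while the receptor subunits Ms4a2 and Fcer1a were under the minimum. The measured mast cell markers above 0 were Hdc and Gata2, with 1.06 and 0.42, and Kit, with -0.53, is a marker that oocytes share. Kit read 2988 (control) and 2055 (mutant), and most of the difference between the summed mast cell signals came from it. The part of any of these cell types in the Slc18a2 result was not tested. In pooled tissue RNA, fewer cells of a type and less RNA per cell cannot be told apart.

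**Figure D2:**
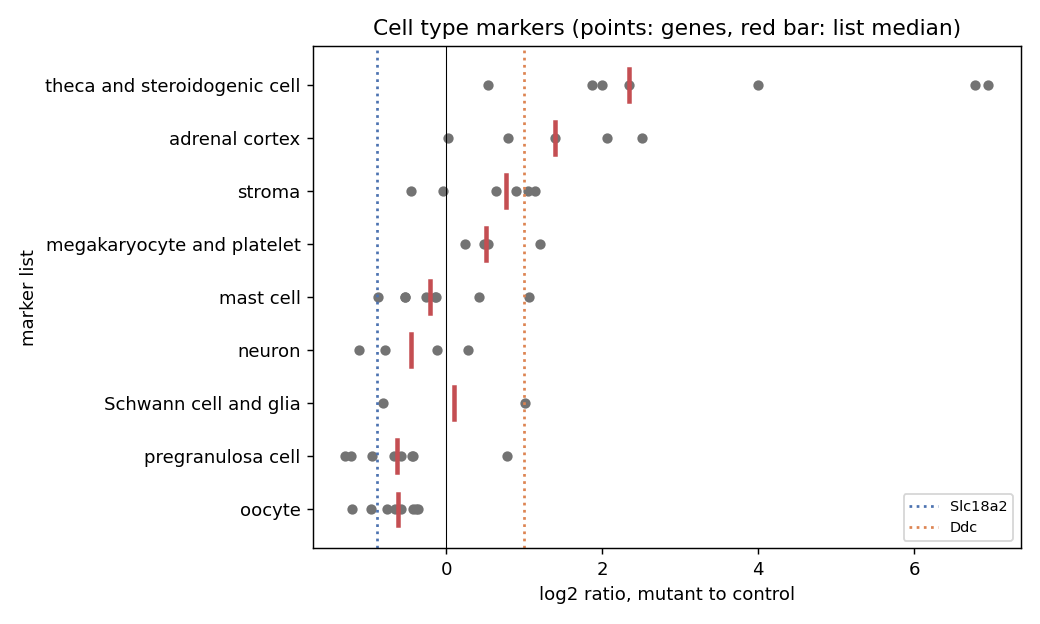
Log2 ratio of mutant to control for the measured genes of 9 cell type marker lists (points), with the list median (red bar) and the ratios of Slc18a2 and Ddc (dotted lines). Oocyte markers all lie to the left of 0, as do 7 of the 8 pregranulosa markers; the steroidogenic and adrenal cortex markers lie to the right, 3 of the 5 adrenal ones with control signals under the minimum.

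Slc18a1 encodes VMAT1, the vesicular transporter typical of chromaffin and other endocrine cells. Its signal was 179 (control) and 73.2 (mutant), with a log2 ratio of -1.08 and a fold of at least 2.22. The mutant signal was under the minimum, so Slc18a1 passed the filter through the control pool alone and could only read lower. Its other probe sets read 20.9 and 0.7 (control) and 15.6 and 1.2 (mutant), all under the minimum. The vesicular acetylcholine transporter Slc18a3 was under the minimum in both pools, at 20.6 and 20.3.

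Ddc, the decarboxylase, was higher in the mutant pool, in the direction opposite to Slc18a2. Its signal was 119 (control) and 258 (mutant), both above the minimum, with a log2 ratio of 0.99. As high or higher were 3.28% of all measured genes, and 3.35% of those in the same signal class, where the SD between probe sets was 0.38. The other Ddc probe set read 2.3 and 7.5, under the minimum in both pools. The gene is known to be transcribed from alternative starts in neuronal and non-neuronal tissues, and the array values do not tell these apart.

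Th, the enzyme of the first step, was 165 (control) and 134 (mutant), 1.24-fold lower. Its log2 ratio of -0.27 was smaller than the probe-set SD of 0.48 in its class, and 25.7% of all measured genes were as low or lower. Dbh was 52.5 (control) and 90.0 (mutant) on its brightest probe set, at least 1.115-fold higher by the bound. The other Dbh probe sets read 27.9 and 5.8 (control) and 31.4 and 15.9 (mutant), under the minimum in both.

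Pnmt, the adrenaline-forming enzyme, had 3 probe sets that disagreed. The 1 measured probe set read 40.4 (control) and 103 (mutant), at least 1.28-fold higher, with a log2 ratio of 1.00. The others read 51.5 and 32.9 (control) and 39.3 and 5.1 (mutant), lower in the mutant but under the minimum throughout. With values under the minimum raised to it, the Pnmt log2 ratio was 0.35. The genes nearest to Pnmt in log2 ratio and mean signal were Cmah, Adamtsl4 and Pglyrp1, all with control signals between 41.4 and 41.8 and mutant signals between 103.4 and 104.6. With 1 array per genotype such likeness is a single ratio.

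The granule proteins were dim. Chga was 89.3 (control) and 107.8 (mutant), a log2 ratio of 0.22, and 27.1% of all measured genes were as high or higher. Chgb was 22.8 and 44.5, under the minimum in both pools. As a background level, no signal among the 27 Bacillus control probe sets, whose targets are absent from mouse RNA, exceeded 26.9.

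Maoa did not differ by more than the probe-set spread on its brighter probe set, at 996 (control) and 947 (mutant), a log2 ratio of -0.07. The second probe set went the other way, at 55.8 (control) and 105 (mutant), at least 1.30-fold higher with a log2 ratio of 0.71, so the sign for Maoa depends on the probe set. Its relative Maob, the isoenzyme that prefers phenylethylamine, was 6.99-fold higher in the mutant pool, at 1181 against 169 on its single probe set, a log2 ratio of 2.65.

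**Figure D3:**
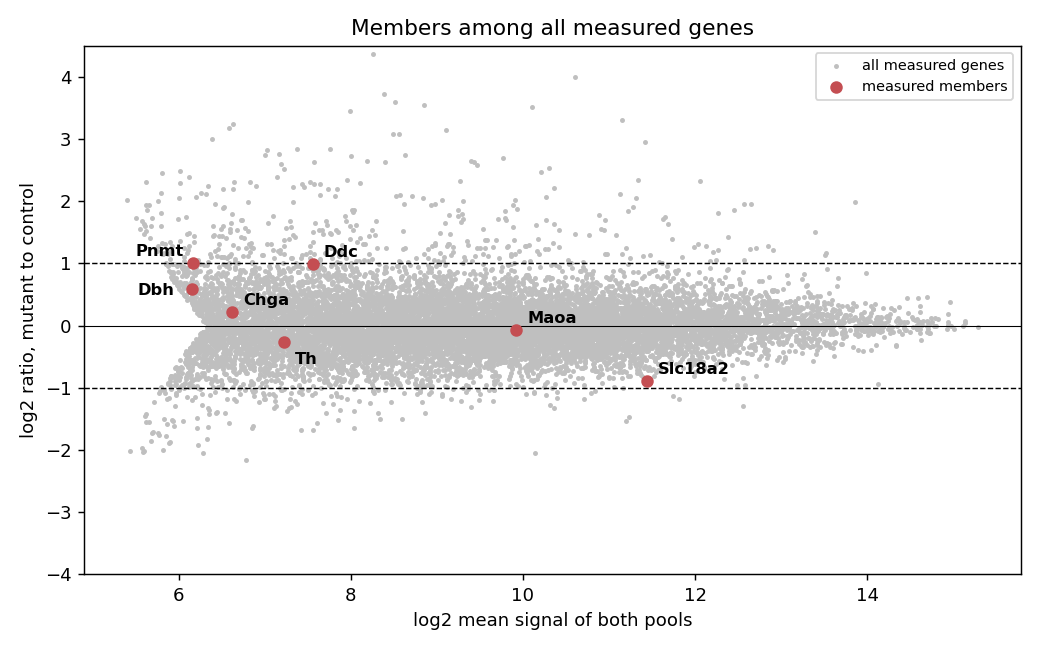
Log2 ratio of mutant to control against log2 mean signal for the measured genes (grey; 6 lie beyond the vertical axis) and the 7 measured members (red), with dashed lines at 2-fold. Slc18a2 lies at the lower edge of the genes of similar signal, Ddc and Pnmt at the 2-fold line, and Pnmt and Dbh at the dim end where the spread is widest.

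The related genes were described from 6 fixed lists with 117 genes, of which 61 were measured. These lists were chosen with earlier results of these data known, so their counts are a description only. At 2-fold or more 9 of these were higher, or 14.8%, beside 3.21% of all measured genes, and 1 was lower, or 1.64%, beside 1.40%. Of the 9, Slc7a8, Cadps, Hand1, Hand2 and Hsd11b1 had control signals under the minimum and passed the filter through the mutant pool alone. The 1 lower gene, Slc18a1, passed it through the control pool alone. The median log2 ratio over the 61 was 0.12.

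Among synthesis enzymes and cofactor genes 9 of 14 were measured, with a median log2 ratio of -0.02. Of these 1 was at 2-fold higher and 0 at 2-fold lower. Hdc, which makes histamine, was 392 (mutant) against 177 (control), 2.22-fold higher, and its dim probe set read 68.6 against 20.9. Gch1, the first enzyme of tetrahydrobiopterin synthesis, the cofactor of Th, was 321 (control) and 221 (mutant), with log2 ratios of -0.50 and -0.54 on its 2 probe sets. Tph2, a tryptophan hydroxylase of serotonin synthesis, had a log2 ratio of -0.39, and Tph1 was under the minimum at 17.0 and 63.4. Qdpr, which regenerates the cofactor, read 16847 (control) and 16613 (mutant) on 1 probe set, and 1507 (control) and 1127 (mutant), 1.34-fold lower, on the other.

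Among transport and breakdown genes 12 of 20 were measured, 2 at 2-fold higher (Maob and Slc7a8) and 1 at 2-fold lower (Slc18a1), with a median log2 ratio of 0.39. Slc7a8, a light chain of the carriers that move large neutral amino acids, L-DOPA included, across the cell membrane, was 392 (mutant) against 67.7 (control), at least 4.85-fold higher. Its partner heavy chain Slc3a2 was 1.77-fold and the other light chain Slc7a5 1.51-fold higher. Sult1a1, a sulfotransferase of phenols and catecholamines, was 1.69-fold higher. The plasma membrane noradrenaline transporter Slc6a2 read 93.7 (control) and 89.1 (mutant). The dopamine and serotonin transporters Slc6a3 and Slc6a4 were under the minimum in both pools. Aldh2 and Akr1a1, which take the aldehydes left by monoamine oxidase further, had log2 ratios of 0.10 and 0.11 on their brightest probe sets. The other measured probe sets ranged from -0.61 to 0.52 for Aldh2 and from -0.08 to 0.44 for Akr1a1.

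**Figure D4:**
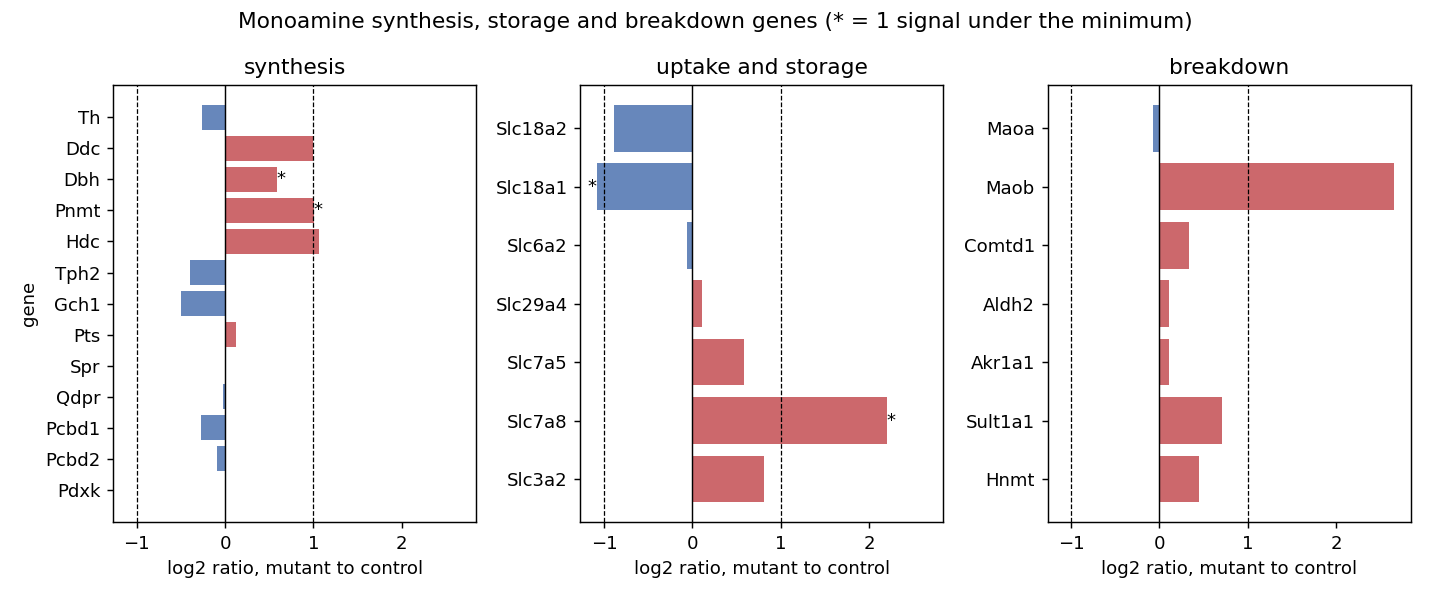
Log2 ratio of mutant to control (bars) for the measured genes of monoamine synthesis, of uptake and storage, and of breakdown, members included, with dashed lines at 2-fold and an asterisk where 1 signal lay under the minimum. The vesicular transporters Slc18a2 and Slc18a1 point left, and Maob and Slc7a8 have the longest bars to the right. The mutant signal of Slc18a1 and the control signal of Slc7a8 lay under the minimum.

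Of 24 monoamine receptor genes 15 had a probe set with a single symbol and only Htr1b was measured, at 143 (control) and 129 (mutant), with a log2 ratio of -0.13, and -0.70 on its second measured probe set. The other 14 were under the minimum in both pools.

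Genes of dense-core vesicles and prohormone processing had a median log2 ratio of 0.17, with 14 of 24 measured, 2 at 2-fold higher and 0 at 2-fold lower. Penk, the enkephalin precursor that chromaffin granules hold beside catecholamines, was 2.94-fold higher, at 2930 (mutant) against 995 (control). Cadps, which primes dense-core vesicles for release, was 155 against 38.2, at least 1.92-fold higher. Scg3, a granin-family protein, was 1.84-fold lower, at 129.5 (mutant) and 238 (control). Pam, which amidates peptides, was 1.52-fold higher. Scg2, Vgf, Pcsk1, Snap25 and Syp were under the minimum in both pools on all their probe sets.

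Of the 20 sympathoadrenal lineage genes 11 were measured, 2 at 2-fold higher and 0 at 2-fold lower, and their median log2 ratio was 0.05. Hand1 and Hand2, basic helix-loop-helix factors of the sympathetic lineage and of several mesenchymal tissues, read 104 against 6.7 and 145 against 34.8, at least 1.29-fold and 1.79-fold higher. The second Hand1 probe set read 24.1 and 24.9, and the other Hand2 probe sets stayed under the minimum. Ret, a receptor tyrosine kinase of neural crest derivatives, was 112 (control) and 63.5 (mutant). The lineage factors Phox2a, Gata3, Insm1 and Tfap2b, and the ganglionic nicotinic receptor subunits Chrna3 and Chrnb4, were under the minimum in both pools. Other listed genes were measured and differed less, such as the neurotrophin receptor Ngfr at 385 (control) and 474 (mutant). The name chromaffin describes what the members are known for, and the presence of chromaffin cells was not shown.

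Regulators of chromaffin genes by glucocorticoid and cAMP had a median log2 ratio of 0.36, with 14 of 15 measured, 2 at 2-fold higher and 0 lower. Hsd11b1, which regenerates active glucocorticoid inside cells, read 98.8 against 12.2, at least 1.22-fold higher. Nr4a2, a nuclear receptor that activates Th in dopamine neurons, was 2.06-fold higher on its brightest probe set, at 852 against 413. Another measured Nr4a2 probe set read 89.5 (mutant) and 117 (control), the opposite direction, and a further one was higher, at 99.8 (mutant) against 69.4 (control). Sgk1, a glucocorticoid-induced kinase, was 1.69-fold higher. The glucocorticoid receptor Nr3c1 had no single direction, since its 3 measured probe sets gave -0.31, 0.13 and 0.81 on the log2 scale. Fkbp5, a receptor target, had a log2 ratio of -0.01.

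Adrenal tissue lies close to the newborn ovary, and its cortex markers were higher in the mutant pool, as Ddc was. Of the 8 adrenal cortex markers 5 were measured, with a median of 1.40 and summed signals of 613 (control) and 1202 (mutant). Of these, Cyp11b1, Cyp21a1 and Mrap passed the filter through the mutant pool alone, so their sign was set by it, and the median of Mc2r and Nr0b1, with both signals at the minimum, was 0.41. Cyp11b1, the 11-beta-hydroxylase, read 269 against 28.8, Cyp21a1 117 against 11.2, and Mrap, an accessory protein of the corticotropin receptor, 235 against 75.3. The second Cyp21a1 and Mrap probe sets were under the minimum and lower in the mutant pool, and the zona glomerulosa enzyme Cyp11b2 was under the minimum in both. Markers of theca and other steroid-producing cells, 7 of 9 measured, had a median of 2.34 and summed signals of 9917 and 53825, and the 5 with both signals at the minimum had a median of 2.00. Of the genes known from the adrenal medulla, Th and Slc18a1 had control signals of 165 and 179, above the minimum, and were given above. Chga lay just above the minimum in both pools, and Chgb, Phox2a and Chrna3 lay under it. Among other genes of its granules or lineage, Penk was higher, at 2930 (mutant) against 995 (control). Dbh, Hand1 and Hand2 were higher on their measured probe sets, with control signals under the minimum, while Scg3 and Ret were lower. The part of adrenal medulla, adrenal cortex or other steroid-producing cells in the Ddc and Pnmt values was not tested.

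Few markers of nerve were measured. Of 10 neuronal markers 4 were measured, with a median of -0.45, and summed signals of 5471 (control) and 2840 (mutant) came mostly from Uchl1. Stmn2, Prph, Nefl, Nefm, Tubb3 and Gap43 were under the minimum in both pools on all their probe sets. Of 8 Schwann cell and glia markers 2 were measured, S100b at 162 (mutant) and 68.9 (control) and Erbb3 at 146 and 273, with summed signals of 342 (control) and 307.5 (mutant), and Sox10 was under the minimum. Platelets store serotonin through Slc18a2. Of 8 megakaryocyte and platelet markers 4 were measured, with a median of 0.51 and summed signals of 729 and 1033. Only Pf4, with a log2 ratio of 0.24, had both signals at the minimum. Itga2b, at 208 (mutant) against 77.7 (control), Gp1bb and Gp5 passed the filter through the mutant pool alone. Of 9 enteroendocrine and islet markers only Ins2 was measured, at 84.7 and 49.4. Stromal markers, with 6 of 6 measured, had a median of 0.77 (0.48 as the mean over probe sets and 0.26 on second probe sets), 2 of them (Pdgfra and Col1a1) at 2-fold higher, and summed signals of 27693 and 40243. Their part in the values of the members was not tested.

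**Figure D5:**
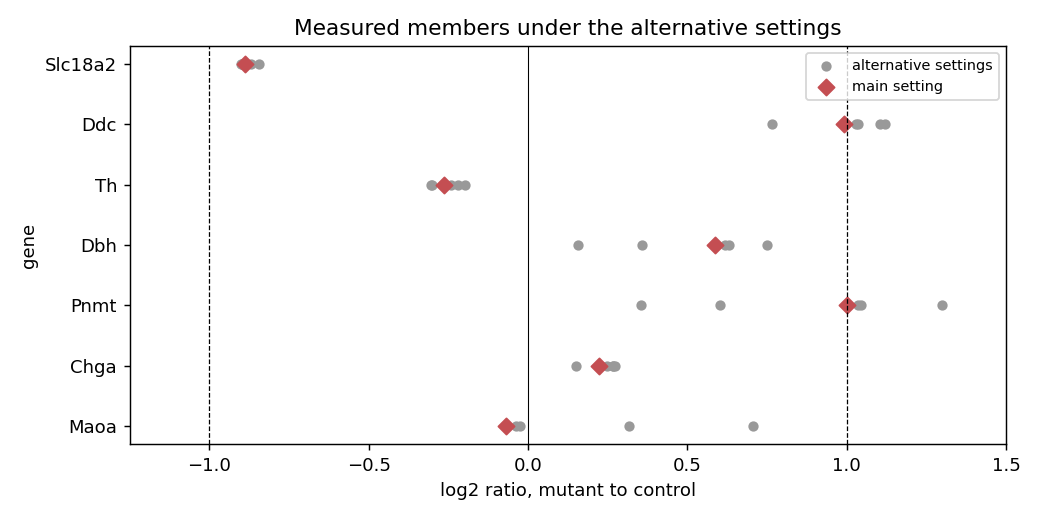
Log2 ratio of mutant to control of the 7 measured members in the main setting (diamonds) and under the alternative settings (grey points), with dashed lines at 2-fold. Slc18a2, Th and Chga moved little, Ddc stayed between 0.76 and 1.12, and Pnmt, Dbh and Maoa moved most. Slc18a2, Th and Chga have 1 probe set each, so the choice of probe set could not move them.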

How the data were processed

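The deposited table holds probe-set signal intensity on a linear scale for 45101 probe sets, 1 column per array, from 0.1 to 50465. The submitters' processing notes name GCOS. Its version and the scaling step are not stated in those notes. The mean without the lowest and highest 2% was 500.0 on both arrays. Per the labels' protocols, equal amounts of RNA from 8 mice were pooled per genotype. Signals were used as deposited. Of the probe sets 34945 had 1 gene symbol, 932 several and 9211 none in the platform annotation. The symbols of all 8 members equal those of RefSeq (GRCm38.p6).

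Each genotype has 1 array, so the precision is limited by the number of arrays and no test was run. Genes were counted past 2-fold and 1.5-fold by log2 ratio. The SD between probe sets of the same gene came from 13386 measured probe sets of 5118 genes (0.385 over all). The members and lists were chosen with earlier results of these data known. The named genes are all members, listed genes at 2-fold or with the largest ratios, and check genes of the marker lists. Further listed genes that are given for their role, named as dim or moderate, were picked after their values were seen. The looser TGACGTNA motif was added later. The calculation was checked on simulated data. The tools were Python 3.11.15, NumPy 2.4.6 and pandas 2.3.3.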

Additional observations from a re-analysis of the deposited data

How the results depend on the processing

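The 11 alternatives changed the pseudocount, the signal minimum, the scaling or the choice of probe set. Slc18a2, Ddc, Th, Dbh, Pnmt and Chga kept their sign wherever they had a value. Each had 1 measured probe set, and a pseudocount or minimum cannot reverse a ratio. Only centring and quantile normalization could therefore have changed these signs. The other Pnmt probe sets, lower in the mutant pool, were under the minimum and had no part in this. Maoa kept its sign in 9 of 11, with 0.32 as the mean over its probe sets and 0.71 on the second. With low values raised to the minimum the log2 ratio was 0.16 for Dbh and 0.35 for Pnmt, and with the pseudocount at the median that of Pnmt was 0.60. Members at 2-fold higher numbered 2 with the 5th percentile as pseudocount, with centring and with quantile normalization, and 0 with the median as pseudocount, with both values at the minimum or with the minimum at the 75th percentile. Members at 1.5-fold higher numbered 1 of 5 measured with both values at the minimum and 1 of 7 with low values raised. With the minimum at the 75th percentile the number was 0, but only 2 members, Slc18a2 and Maoa, were then measured and Ddc was not. Genes of the 6 lists at 2-fold higher numbered 4 with the median as pseudocount or both values at the minimum, 3 with the 75th percentile and 5 with low values raised. Those lower numbered 0 under the first 3 of these and 2 with no minimum. All measured genes at 2-fold higher numbered 247, 222 and 182 with the median as pseudocount, both values at the minimum and the 75th percentile, and 678 with no minimum. Those lower numbered 48, 84, 48 and 441 in the same order, 278 with the 5th percentile as pseudocount and 259 on second probe sets. Fewer genes were measured under the 2 stricter minimum rules, so their counts have other denominators than the percentages given above. On second probe sets the median of the receptor list was -0.70 and Nr4a2 was -0.32. A change was judged against the probe-set SD, since there are no replicates. No paired analysis was possible because each genotype has 1 array. Signals near the minimum, as for Pnmt, Dbh, Chga and Chgb, limit what can be said of these genes.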
